A study of Homo sapiens with 4 samples.

Results

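The genes described here are the coactivators YAP1 and WWTR1 (also called TAZ), the transcription factor TEAD1, the kinase LATS2 and 6 genes widely used as readouts of YAP activity, CYR61, CTGF, ANKRD1, AMOTL2, AJUBA and AXL. The 10 are named genes of this pathway, out of 29437 genes in the deposited tables. All 10 were in the tables, and 9 of them had a mean level of at least 1 FPKM (fragments scaled to gene length and to the reads counted in the library) and entered the test, with 12168 genes in all. ANKRD1 lay below that level.

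Polyadenylated RNA came from CAL27, an established human cell line from an oral squamous cell carcinoma. A group of 2 libraries came from cells that a lentivirus made to overexpress CCL20, a chemokine that binds the receptor CCR6, and the other 2 came from cells labelled negative control. Apart from CCL20, no allele or agent is named for either group, and both grew in DMEM with fetal bovine serum. The sources used here name neither the virus of the control cells, if any, nor the promoter that drove CCL20. They also do not say whether the overexpressing cells were a single clone, or whether the replicates came from separate cultures, so p-values measure only the spread between these libraries.

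In the Hippo pathway, the kinases STK3 and STK4 activate LATS1 and LATS2, which phosphorylate YAP and TAZ and keep them out of the nucleus. Free of that phosphorylation, YAP and TAZ enter the nucleus and bind TEAD factors, since they have no DNA-binding domain of their own, and drive genes of growth, adhesion and matrix. Several of those targets act back on the pathway: LATS2 and AMOTL2 restrain YAP, while AJUBA binds and inhibits LATS kinases. In squamous epithelium, YAP is known for activity in proliferating basal cells and in carcinomas. The pathway is largely controlled through phosphorylation and location of the proteins, which RNA levels do not measure.

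TEAD factors bind DNA at a motif whose core is GGAATG, or CATTCC on the other strand. The promoters of 3 targets are printed because they show how that motif sits in this set: CTGF and ANKRD1 had the most copies, and AMOTL2 had the lowest fold change of the tested targets in the set. Each line gives the 250 bases before a transcription start, 5′ to 3′ on the strand of the gene, from RefSeq on GRCh38.p14, and capitals mark the motif core on either strand. CTGF lies at chr6:131951373-131951622, ANKRD1 at chr10:90921088-90921337 and AMOTL2 start 2 at chr3:134374448-134374697, each on the minus strand.
CTGF: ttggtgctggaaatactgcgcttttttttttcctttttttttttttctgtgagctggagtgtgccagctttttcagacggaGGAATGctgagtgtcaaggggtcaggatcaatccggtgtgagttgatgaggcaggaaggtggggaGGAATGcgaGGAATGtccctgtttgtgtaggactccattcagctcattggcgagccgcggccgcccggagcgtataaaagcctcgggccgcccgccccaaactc
ANKRD1: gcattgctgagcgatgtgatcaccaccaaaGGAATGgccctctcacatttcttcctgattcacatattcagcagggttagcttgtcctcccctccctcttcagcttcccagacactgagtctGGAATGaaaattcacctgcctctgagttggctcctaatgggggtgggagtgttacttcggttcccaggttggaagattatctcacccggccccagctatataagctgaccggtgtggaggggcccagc
AMOTL2 start 2: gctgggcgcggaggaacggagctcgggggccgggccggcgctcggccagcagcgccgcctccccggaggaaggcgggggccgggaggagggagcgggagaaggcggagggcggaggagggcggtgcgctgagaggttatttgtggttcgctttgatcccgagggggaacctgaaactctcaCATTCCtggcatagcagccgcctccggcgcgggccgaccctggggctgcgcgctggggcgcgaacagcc

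The 6 letters GGAATG and CATTCC were searched on both strands in windows of 300 bases, 250 before and 50 after each start. The RefSeq table held 8 of the 10 genes with 12 promoters, matched by symbol or synonym. TEAD1 and CYR61 had no promoter in that table. The CTGF promoter held 3 matches, which begin 169, 104 and 95 bases before the start, and the ANKRD1 promoter held 2, which begin 220 and 128 bases before it. AMOTL2 held 1 match at start 2, 69 bases before it on the opposite strand, and none at start 1. Single matches stood in the promoters of YAP1 and LATS2, the second of these 10 bases after the start, and at the second start of AJUBA and of AXL. Neither promoter of WWTR1 held the letters. Altogether 7 of the 12 promoters held a match, and 14.0% of all 35116 promoters in the table did. The matches stood in 7 of the 8 genes, some of which have 2 starts, and the share over all genes was not taken. At least 2 matches occurred in 1.37% of all promoters and at least 3 in 0.128%. A match is a run of letters, not a measured binding site.

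**Figure D1:**
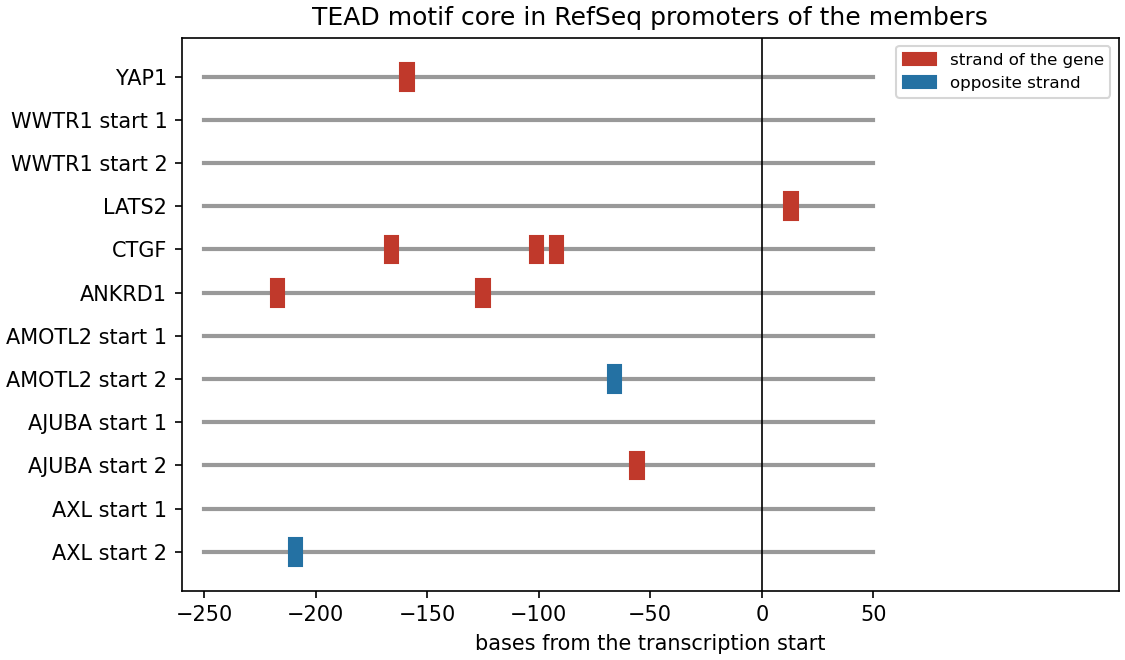
Matches to the TEAD motif core in 12 RefSeq promoters of 8 genes, with the distance from the transcription start in bases on the x axis, a grey line for each window and a box for each match (red on the strand of the gene, blue on the opposite strand). CTGF has 3 boxes and ANKRD1 has 2, the WWTR1 windows have none, and the matches at AMOTL2 and AXL lie at their second start.

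The libraries held 15355030 and 16870325 counted reads with CCL20 overexpression and 13681862 and 17860695 in the negative control. CCL20 itself had 15.2 and 11.3 FPKM in CCL20 libraries and 8.62 and 7.10 FPKM in control libraries, a log2 fold change of 0.95 (SE 0.21, edgeR adjusted p = 0.0143) that became 0.06 (adjusted p = 0.916) once the trend of all genes with mRNA length was taken out. The groups are therefore named by their labels. Squamous epithelial markers were present, 9 of 10 at a mean of at least 1 FPKM, with summed levels of 988 and 1275 FPKM in CCL20 libraries and 956 and 1035 FPKM in control libraries. The basal keratin KRT5 was the highest, with 362 and 521 FPKM in CCL20 libraries and 439 and 467 FPKM in control libraries. In FPKM, TP63, CDH1, DSG3 and ITGB4 were lower in both CCL20 libraries than in both controls. KRT14, KRT17, EPCAM and SFN were higher, and KRT5 and KRT6A overlapped. KRT14, the marker under a mean of 1 FPKM, had 0.712 to 1.11 FPKM. Summed levels of the fibroblast markers, with 1 of 7 at that level (COL1A1), were 2.93 and 3.51 against 4.72 and 5.58 FPKM. Those of the endothelial markers, with 1 of 4 (CDH5), were 5.27 and 5.10 against 8.81 and 8.23 FPKM. Those of the leukocyte markers, with 1 of 5 (CD14), were 1.35 and 1.99 against 1.20 and 1.27 FPKM, each pair given for CCL20 and then control libraries. Among the other markers of these 3 lists, COL1A2 and PDGFRB had 67 to 156 counts, VWF, CD3E and LUM had 5 to 20, and PTPRC, CD68, PECAM1, KDR, PDGFRA, DCN and COL3A1 had at most 2 in any library. The part of CDH5, COL1A1 and CD14 RNA in the results below was not tested. The 4 TMM scaling factors were 0.964 and 0.896 for CCL20 libraries and 1.08 and 1.07 for control libraries, so fitted fold changes lie above the plain ratios of FPKM.

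Over all tested genes, edgeR called 2010 higher with CCL20 overexpression, 16.5% of the genes tested, and 1905 lower, 15.7%, at an adjusted p under 0.05. Scaling to the total count gave 1251 higher and 2985 lower and moved the median log2 fold change to -0.21. On the TPM scale 500 were called higher and 4516 lower, and the median was -0.49. The fold changes followed gene length, long messages being lower and short ones higher in CCL20 libraries. Taking out the trend with mRNA length left 3.65% of genes called higher and 3.22% called lower, and corrected values stand beside the results below. The cause of the length trend was not tested.

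TEAD1, AMOTL2 and LATS2 were lower with CCL20 overexpression, and none of the 9 tested genes was called higher. These 3 lower genes of 9 stand against 15.7% of all tested genes. YAP1 just missed the threshold, and WWTR1, CYR61, CTGF, AJUBA and AXL did not pass it. With the mRNA length correction, TEAD1 and AMOTL2 were lower and LATS2 was not called, that is 2 of 9, against 3.22% of all genes corrected in this way. The FPKM values of the groups did not overlap for YAP1, TEAD1, LATS2, AMOTL2, AJUBA and AXL, all lower with CCL20, which is 6 of 9, while 72.7% of all tested genes did not overlap.

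**Figure D2:**
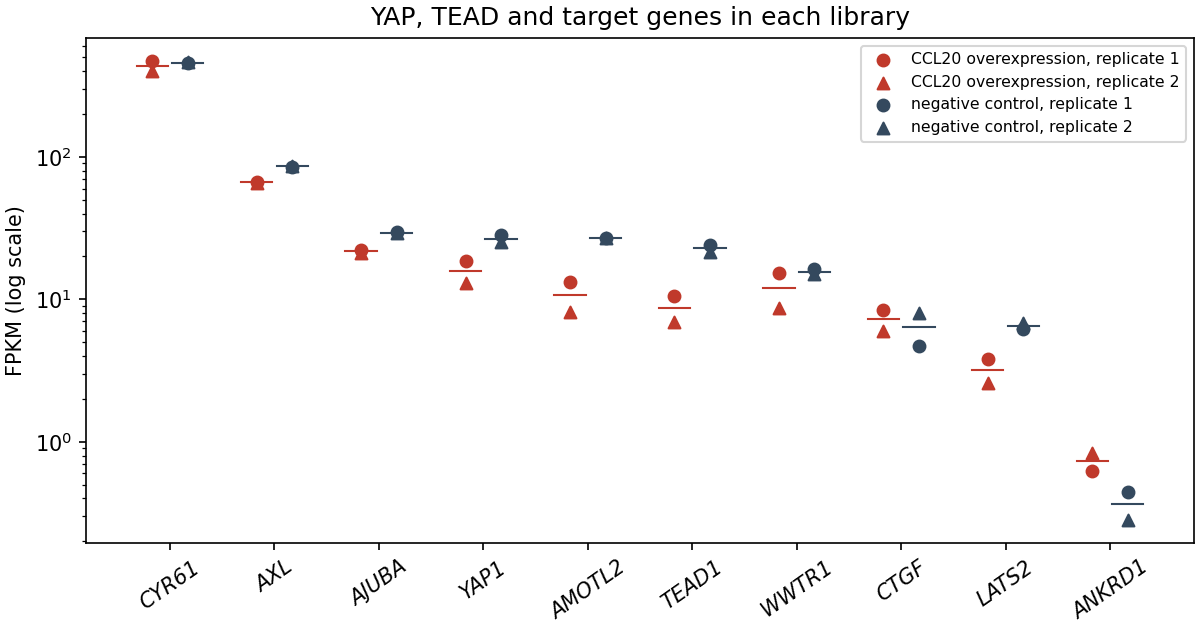
Level of each gene in each library in FPKM (y axis, log scale), with CCL20 overexpression in red left of the negative control in dark blue, circles for replicate 1, triangles for replicate 2 and bars for group means. CYR61 is the highest gene at 399.9 to 474 FPKM and ANKRD1 the lowest at 0.283 to 0.839 FPKM, and the red marks of TEAD1, AMOTL2 and LATS2 lie below the blue ones.

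YAP1 (ENSG00000137693, chromosome 11, 102110461 to 102233423 on the plus strand of GRCh38, as are all positions below, from GENCODE 29) encodes the coactivator that gives the pathway its output. It had 18.6 and 13.0 FPKM in CCL20 libraries, from 1796 and 1378 counts, and 28.1 and 25.1 FPKM in control libraries, from 2422 and 2822 counts. Both CCL20 libraries lay below both control libraries. The means were 15.8 ± 3.96 and 26.6 ± 2.14 FPKM (SD, n = 2 each), with a log2 fold change of -0.56 (SE 0.19, edgeR adjusted p = 0.0554). YAP1 was lower at an adjusted p of 0.0318 in DESeq2 and 0.0245 with scaling to the total count. With the mRNA length correction its log2 fold change was -0.10 (adjusted p = 0.770). Its principal mRNA is long, at 5386 nt, and the trend of all genes at that length was -0.46 on the log2 scale.

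WWTR1 (ENSG00000018408, chromosome 3, 149517235 to 149736714, minus strand) encodes TAZ, the paralog of YAP. It had 15.4 and 8.70 FPKM in CCL20 libraries and 16.3 and 15.0 FPKM in control libraries. The first CCL20 library lay within the range of the controls and the second well under it. The means were 12.1 ± 4.75 and 15.6 ± 0.869 FPKM (SD, n = 2 each), with a log2 fold change of -0.18 (SE 0.24, edgeR adjusted p = 0.568). Without CCL20 replicate 1 it was -0.59, and without CCL20 replicate 2 it was 0.14, so the replicate kept decides the sign. Each of these fits has a lone CCL20 library, which is assumed to vary like the controls. WWTR1 was -0.43 (adjusted p = 0.348) with the mRNA length correction. The antisense gene WWTR1-AS1, whose exons overlap those of WWTR1, had 16 and 13 counts in CCL20 libraries and 10 and 6 in control libraries, against 1235 counts or more for WWTR1.

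Among the coactivator transcripts, YAP1 made up 54.7% and 59.9% of the summed YAP1 and WWTR1 FPKM in CCL20 libraries and 63.4% and 62.5% in control libraries. Both CCL20 shares were lower than both control shares before any length correction. The log2 fold changes of YAP1 and WWTR1 were -0.10 and -0.43 with the mRNA length correction. With gene length they were -0.32 and 0.18, so the direction of the share change depended on the correction. The shares are given as a description and were not tested. FPKM divides counts by merged exons, 6296 nt for YAP1 and 8413 nt for WWTR1, while their principal mRNAs have 5386 and 2103 nt. Which of these transcripts makes up more therefore depends on the length used. By counts, which follow length as well, the mean shares were 50.1% with CCL20 and 56.0% in the control.

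TEAD1 (ENSG00000187079, chromosome 11, 12674591 to 12944483, plus strand) encodes a factor of the TEAD family, which carries YAP and TAZ to DNA. It had 10.5 and 6.90 FPKM in CCL20 libraries, from 1659 and 1197 counts, and 24.2 and 21.5 FPKM in control libraries, from 3407 and 3954 counts. Both CCL20 values lay far below both control values. The means were 8.71 ± 2.55 and 22.9 ± 1.90 FPKM (SD, n = 2 each). The fitted level was 2.30-fold lower with CCL20, a log2 fold change of -1.20 (SE 0.20, edgeR adjusted p = 0.00626).

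The TEAD1 call depends on which length is used. Its principal mRNA has 3075 nt, where the trend of all genes was -0.07, and the correction on that length left -1.12 (SE 0.20, edgeR adjusted p = 0.0183). With gene length, 10279 nt of merged exons, it was -0.74 (adjusted p = 0.0321). With its longest coding transcript, 8477 nt, it was -0.57 (adjusted p = 0.0848). Which transcripts CAL27 cells make cannot be read from counts per gene. Leaving out control replicate 1 also ended the call, at -1.12 (adjusted p = 0.0533), with a fold change close to that of all 4 libraries.

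**Figure D3:**
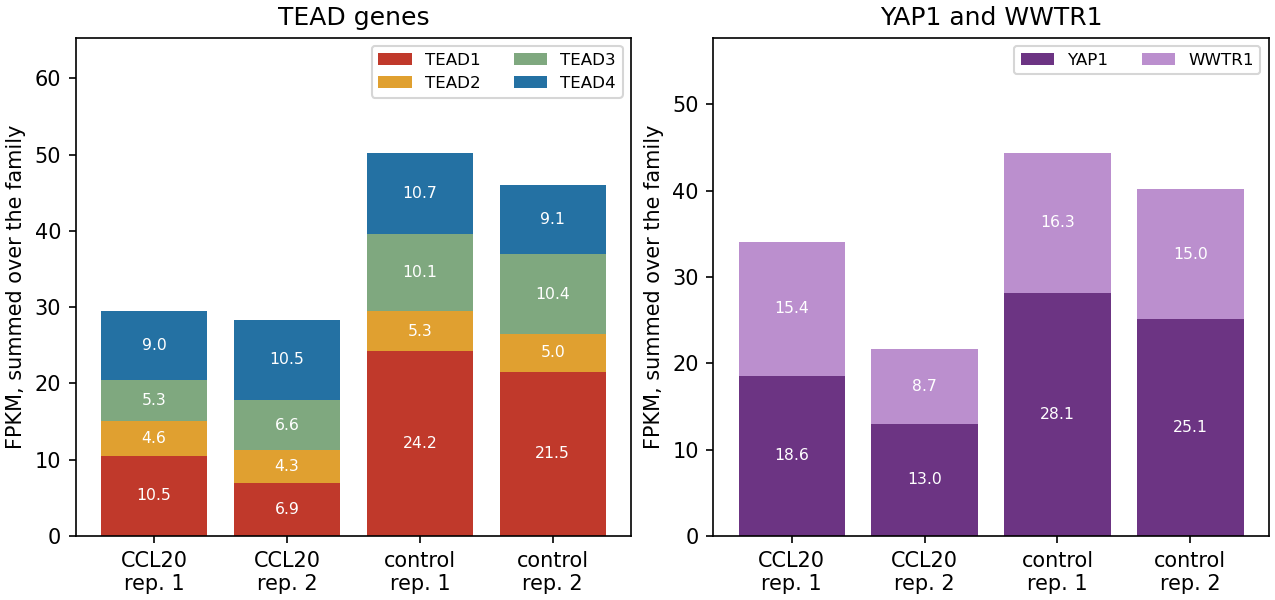
FPKM of the TEAD genes (left) and of YAP1 and WWTR1 (right), stacked for each library, with the 2 CCL20 overexpression libraries left of the 2 negative control libraries. The TEAD sum is 29.4 and 28.4 FPKM with CCL20 and 50.3 and 46.0 FPKM in the control, and the red TEAD1 segment differs most between the groups.

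None of the other TEAD genes passed the threshold. TEAD4 had 9.00 and 10.5 FPKM in CCL20 libraries and 10.7 and 9.12 FPKM in control libraries, with overlapping groups and a log2 fold change of 0.19 (edgeR adjusted p = 0.483). TEAD2 had 4.59 and 4.34 FPKM in CCL20 libraries and 5.30 and 4.98 FPKM in control libraries (adjusted p = 0.995). TEAD3 had 5.35 and 6.60 FPKM in CCL20 libraries and 10.1 and 10.4 FPKM in control libraries, with a log2 fold change of -0.57 that missed the threshold at an adjusted p of 0.0653. Corrected for mRNA length, TEAD2, TEAD3 and TEAD4 were at -0.23, -0.51 and -0.28, with adjusted p-values of 0.513, 0.159 and 0.412. With the gene length correction TEAD3 was called lower, at -0.91 (adjusted p = 0.0212). TEAD1 thus held 35.7% and 24.3% of the summed TEAD FPKM in CCL20 libraries, against 48.2% and 46.8% in control libraries. In the control it was the most abundant TEAD transcript by FPKM, and in CCL20 replicate 2 TEAD4 stood above it. FPKM divides by merged exons, 10279 nt for TEAD1 and 2272 nt for TEAD4, while their principal mRNAs have 3075 and 1690 nt. The TEAD1 share and this order therefore depend on the length used. In counts, CCL20 replicate 2 had 1197 for TEAD1 and 404 for TEAD4. By counts the mean TEAD1 share was 61.8% with CCL20 and 77.3% in the control.

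LATS2 (ENSG00000150457, chromosome 13, 20973032 to 21061547, minus strand) encodes a kinase that inactivates YAP and is itself a YAP target. It had 3.81 and 2.59 FPKM in CCL20 libraries and 6.22 and 6.77 FPKM in control libraries. Each CCL20 value lay below each control value. The fitted level was 1.77-fold lower, a log2 fold change of -0.83 (SE 0.21, edgeR adjusted p = 0.0214). LATS2 is a long message, with a principal mRNA of 5511 nt, and it was not called after any of the 3 length corrections, with -0.35 (adjusted p = 0.300) on mRNA length, -0.67 (adjusted p = 0.0603) on gene length and -0.41 (adjusted p = 0.237) on the longest coding transcript. Without control replicate 1 it was -0.89 (adjusted p = 0.141), and without control replicate 2 it was -0.76 (adjusted p = 0.201), so the calls were lost with fold changes of about the same size.

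AMOTL2 (ENSG00000114019, chromosome 3, 134355874 to 134375479, minus strand) encodes an angiomotin-like protein of cell junctions that binds YAP and holds it in the cytoplasm. It had 13.2 and 8.11 FPKM in CCL20 libraries, from 1215 and 819 counts, and 26.8 and 27.2 FPKM in control libraries, from 2191 and 2902 counts. The control libraries were nearly equal and both stood far above the CCL20 libraries. The means were 10.7 ± 3.61 and 27.0 ± 0.277 FPKM (SD, n = 2 each). The fitted level was 2.21-fold lower, a log2 fold change of -1.14 (SE 0.22, edgeR adjusted p = 0.00824).

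AMOTL2 was lower after every length correction tried. The log2 fold change was -0.80 (SE 0.19, edgeR adjusted p = 0.0478) on mRNA length, -0.94 (adjusted p = 0.0240) on gene length and -0.86 (adjusted p = 0.0403) on the longest coding transcript. Its principal and longest transcripts are alike in length, at 4488 and 4521 nt. With the mRNA length correction, leaving out control replicate 1 or control replicate 2 ended the call, at -0.83 (adjusted p = 0.359) and -0.78 (adjusted p = 0.404). TEAD1 under that correction was not called without control replicate 1, at -1.04 (adjusted p = 0.128). Without a control replicate these fold changes stayed close to those of all 4 libraries, but leaving out a CCL20 replicate moved them more. Under the same correction AMOTL2 was -1.08 without CCL20 replicate 1 and -0.58 without CCL20 replicate 2. TEAD1 was -1.40 and -0.89 in those fits.

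**Figure D4:**
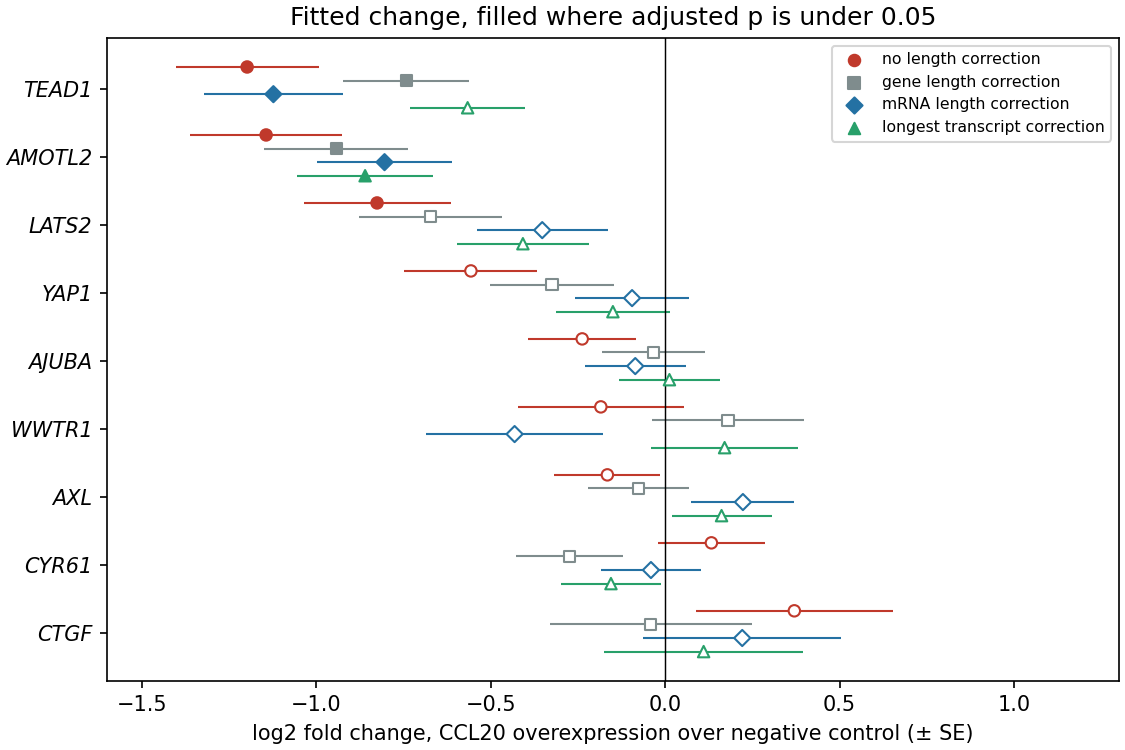
Fitted log2 fold change of CCL20 overexpression over negative control (x axis, bars are ± SE) for the 9 tested genes, without a length correction (circles) and with corrections on gene length (squares), mRNA length (diamonds) and longest coding transcript (triangles). Symbols are filled where the adjusted p is under 0.05, which holds for AMOTL2 in all 4 fits, for TEAD1 in 3 and for LATS2 in 1.

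CYR61 and CTGF encode secreted matrix-associated proteins of the CCN family and are the most widely used YAP target genes. CYR61 (ENSG00000142871, chromosome 1, 85580761 to 85583962, plus strand) had 474 and 399.9 FPKM in CCL20 libraries and 453 and 464 FPKM in control libraries. The CCL20 libraries lay on either side of the controls. CYR61 had a log2 fold change of 0.13 (SE 0.15, edgeR adjusted p = 0.521), which turned to -0.075 with total count scaling, -0.35 on the TPM scale and -0.041 with the mRNA length correction.

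CTGF (ENSG00000118523, chromosome 6, 131948176 to 131951373, minus strand) was far less abundant. It had 8.41 and 6.03 FPKM in CCL20 libraries, from 302 and 238 counts, and 4.72 and 8.02 FPKM in control libraries, from 151 and 335 counts. The control libraries differed more between themselves than the group means did. The log2 fold change was 0.37 (SE 0.28, edgeR adjusted p = 0.331), 0.22 (adjusted p = 0.686) with the mRNA length correction and -0.10 on the TPM scale. It was 0.042 without control replicate 1, 0.81 without control replicate 2 and 0.15 without CCL20 replicate 1. Without CCL20 replicate 2 it was 0.54. Each of these fits leaves a lone library in a group, which is assumed to vary like the other group. CYR61 made up 98.3% and 98.5% of the summed CYR61 and CTGF FPKM in CCL20 libraries, against 99.0% and 98.3% in control libraries.

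ANKRD1 (ENSG00000148677, chromosome 10, 90912096 to 90921276, minus strand) encodes an ankyrin repeat protein first known from heart muscle. It had 0.625 and 0.839 FPKM in CCL20 libraries, from 19 and 28 counts, and 0.443 and 0.283 FPKM in control libraries, from 12 and 10 counts. The CCL20 libraries were the higher ones, but ANKRD1 was under the filter. In a fit without the filter its log2 fold change was 1.29 (SE 0.57, edgeR adjusted p = 0.113).

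AJUBA (ENSG00000129474, chromosome 14, 22971174 to 22982642, minus strand) encodes a LIM protein that binds LATS kinases at junctions. It had 22.3 and 21.0 FPKM in CCL20 libraries and 29.8 and 29.1 FPKM in control libraries. The groups stood apart, yet the log2 fold change with TMM scaling was -0.24 (SE 0.16, edgeR adjusted p = 0.260), and -0.086 (adjusted p = 0.765) with the mRNA length correction. AXL (ENSG00000167601, chromosome 19, 41219203 to 41261766, plus strand) encodes a receptor tyrosine kinase linked to invasion and drug resistance in carcinomas. It had 66.5 and 65.9 FPKM in CCL20 libraries and 85.5 and 85.9 FPKM in control libraries, with a log2 fold change of -0.17 (SE 0.15, adjusted p = 0.416). Within each group the AXL libraries were almost equal. The direction of AXL turned to 0.22 with the mRNA length correction. Both genes were called lower on the TPM scale, at edgeR adjusted p-values of 0.0171 for AJUBA and 0.0170 for AXL. On that scale 4516 of all 12168 tested genes were called lower and 500 higher. An antisense gene that overlaps AXL exons, AC011510.1, had no counts in CCL20 libraries and 9 and 16 in control libraries, against 5265 or more for AXL.

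**Figure D5:**
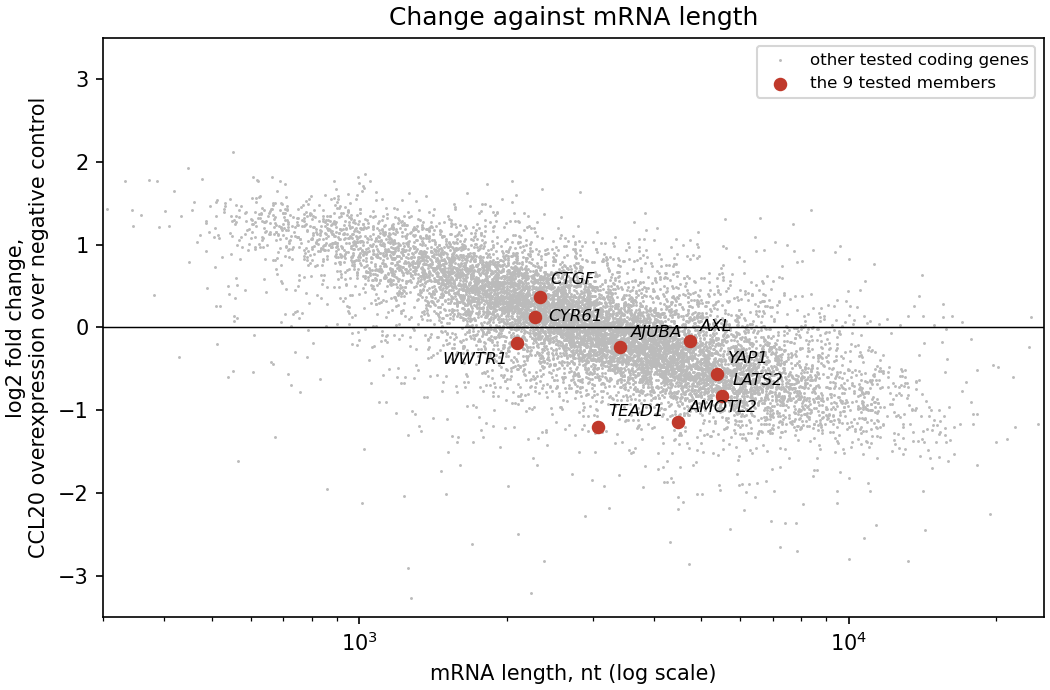
Log2 fold change of CCL20 overexpression over negative control (y axis) against principal mRNA length in nt (x axis, log scale) for 10566 tested coding genes in grey, with the 9 tested genes of the set in red. TEAD1 and AMOTL2 lie farthest beneath the trend of the grey points, at -1.12 and -0.80 with the mRNA length correction, and CYR61, AJUBA and YAP1 lie closest to it, at -0.041, -0.086 and -0.10.

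The members differed in length as well as in change. Principal mRNAs of CTGF, CYR61 and WWTR1 had 2339, 2290 and 2103 nt, where the trend of all genes was 0.16, 0.18 and 0.27 on the log2 scale. Those of LATS2, YAP1 and AXL had 5511, 5386 and 4737 nt, where it was -0.48, -0.46 and -0.38. The part of length in the members' changes was not tested apart from the corrections.

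Within the CCL20 group, replicate 2 had the lower FPKM for all 9 tested members, with log2 differences between the replicates of -0.82 to -0.01 and a median of -0.51, while the median over all tested genes was -0.11. In the control group 4 of 9 members were lower in replicate 2, and the median was 0.0069, against -0.018 over all tested genes. The share of all tested genes lower in replicate 2 was not taken in either group. These log2 differences were taken on FPKM with a pseudocount of 0.1. The members that fell with CCL20 overexpression were therefore lowest in CCL20 replicate 2, and they were below the controls in CCL20 replicate 1 too.

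Ranked by mean FPKM over the 4 libraries, CYR61 came first, then AXL, AJUBA, YAP1, AMOTL2, TEAD1, WWTR1, CTGF, LATS2 and ANKRD1. Neighbours in that order did not overlap within a group, with 4 exceptions. YAP1 and AMOTL2 overlapped in both groups. AMOTL2 and TEAD1 overlapped with CCL20 overexpression, as did TEAD1 and WWTR1. CTGF and LATS2 overlapped in the control.

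Some of the kinases and regulators upstream of YAP were lower and none was higher, at the main scaling. Of 24 genes listed, 22 were tested, and edgeR called 10 lower, against 15.7% of all tested genes, and none higher, against 16.5%, with a median log2 fold change of -0.52, against 0.0019 over all tested genes. The 10 were STK4, LATS1, WWC2, FRMD6, TAOK1, MINK1, LIMD1, AMOTL1, PTPN14 and SLMAP. Their list was one of long messages, with a median mRNA length of 4944 nt against 2998 nt over the 10572 tested coding genes. With the mRNA length correction none of the 22 was called in either direction, and the median was -0.17. Of all genes, 3.22% were called lower and 3.65% higher with it. With gene length 1 was called lower, TAOK1 at -0.73 (edgeR adjusted p = 0.0342), where 721 of all 12168 genes were lower. With mRNA length and the replicate number as a block, 4 were lower and 1 higher. That fit called 964 of 10572 genes lower and 1102 higher. Scaling to the total count gave 15 lower and the TPM scale 16, where 2985 and 4516 of all 12168 tested genes were called lower. Fewer genes were called lower when a control replicate was left out, and more when a CCL20 replicate was, as over all tested genes. The list median was -0.47 without control replicate 1 and -0.53 without control replicate 2. It was -0.71 without CCL20 replicate 1 and -0.47 without CCL20 replicate 2. Over all tested genes the medians of these fits were -0.0064 to 0.014.

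TAOK1, a kinase that activates STK3 and STK4, had 3.90 and 2.50 FPKM in CCL20 libraries and 9.88 and 9.51 FPKM in control libraries (log2 fold change -1.40, edgeR adjusted p = 0.00477, and 0.0834 once corrected for mRNA length). PTPN14, a phosphatase that binds YAP, had 5.14 and 3.96 FPKM in CCL20 libraries and 11.3 and 10.2 FPKM in control libraries (log2 fold change -1.04, adjusted p = 0.00588, and 0.442 with the correction). LIMD1, a LIM protein related to AJUBA, had 0.755 and 0.847 FPKM in CCL20 libraries and 1.94 and 1.83 FPKM in control libraries (log2 fold change -1.02, adjusted p = 0.00896, and 0.594 with the correction). These 3 were picked for the smallest p among the lower genes, so the gap between their groups is no added evidence. Groups did not overlap in 72.7% of all tested genes. LATS1, the paralog of LATS2, had a log2 fold change of -0.76 (adjusted p = 0.0227), and -0.25 (adjusted p = 0.424) once corrected. NF2, the tumour suppressor Merlin, had 0.16 (adjusted p = 0.532), and 0.71 (adjusted p = 0.0834) once corrected. MOB1A, a cofactor of LATS kinases and the highest of the list, had 34.0 and 27.0 FPKM in CCL20 libraries and 48.8 and 42.4 FPKM in control libraries (log2 fold change -0.38, adjusted p = 0.118, and 0.024 with the correction).

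Among the other TEAD genes and the Vestigial-like cofactors, which bind TEAD at the surface that YAP uses, 4 of 6 were tested and VGLL4 was the 1 called, lower, against 15.7% of all tested genes. The count was 2 under several alternatives, among them total count scaling, the TPM scale, limma, lower filters and the gene length correction. Of all 12168 tested genes, 2985 were called lower with total count scaling and 4516 on the TPM scale. VGLL4, an inhibitor of TEAD activity, had 1.05 and 0.688 FPKM in CCL20 libraries, from 117 and 84 counts, and 2.23 and 2.27 FPKM in control libraries, from 221 and 294 counts. Its log2 fold change was -1.18 (SE 0.24, edgeR adjusted p = 0.0104). VGLL4 was lower with the 3 length corrections too, at adjusted p-values of 0.0461 on mRNA length, 0.0400 on gene length and 0.0397 on the longest coding transcript. The calls in this list were lost when either control replicate was left out, and calls over all tested genes fell too. The list median was -0.28 without control replicate 1 and -0.29 without control replicate 2. VGLL1 and VGLL3 lay under the filter, and in the fit without it VGLL3 was called lower, at -1.05 (adjusted p = 0.000747).

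Among the other YAP target genes, calls went both ways at the main scaling. Of 22 listed, 21 were tested, and edgeR called 3 higher, against 16.5% of all tested genes, and 9 lower, against 15.7%, with a median log2 fold change of -0.27. Scaling to the total count gave 1 higher and 9 lower, and the TPM scale 0 higher and 12 lower. Over all 12168 tested genes these scalings gave 1251 higher and 2985 lower, and 500 higher and 4516 lower. PTPN14 and AMOTL1 stand in both this list and the upstream one. The genes called higher were AREG, GADD45A and BIRC5, and those called lower were MYOF, ASAP1, CRIM1, DOCK5, PTPN14, ARHGEF17, TGFB2, THBS1 and AMOTL1. With the mRNA length correction none was called, and the median was -0.16. With gene length ARHGEF17 and TGFB2 were called lower, at edgeR adjusted p-values of 0.0336 and 0.0427, and none higher. Of all 12168 genes, 721 were lower and 1211 higher in that fit. With mRNA length and the replicate number as a block, 3 were higher and 2 lower. That fit called 1102 of 10572 genes higher and 964 lower. The median mRNA length of the list was 3548 nt. Fewer genes were called when a control replicate was left out, as over all tested genes. The list median was -0.19 without control replicate 1 and -0.32 without control replicate 2. It was -0.35 without CCL20 replicate 1 and -0.21 without CCL20 replicate 2.

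AREG, an EGF receptor ligand, had 18.9 and 16.3 FPKM in CCL20 libraries and 11.7 and 11.4 FPKM in control libraries (log2 fold change 0.81, edgeR adjusted p = 0.0139, and 0.761 once corrected for mRNA length). GADD45A, a stress-induced gene, had 41.7 and 40.3 FPKM in CCL20 libraries and 28.5 and 31.9 FPKM in control libraries (log2 fold change 0.65, adjusted p = 0.0209, and 0.809 with the correction). BIRC5, the mitotic protein survivin, had 68.0 and 68.6 FPKM in CCL20 libraries and 54.1 and 51.8 FPKM in control libraries (log2 fold change 0.57, adjusted p = 0.0272, and 0.0732 with the correction). These 3 were picked because they were called higher, so the gap between their groups is no added evidence. ARHGEF17 had 3.24 and 3.69 FPKM in CCL20 libraries and 9.11 and 9.18 FPKM in control libraries (log2 fold change -1.19, adjusted p = 0.00477, and 0.151 with the correction). DOCK5, an exchange factor for Rac, had 3.12 and 3.14 FPKM in CCL20 libraries and 7.26 and 7.12 FPKM in control libraries (log2 fold change -0.99, adjusted p = 0.00548, and 0.461 with the correction). F3, tissue factor and the highest of the list, had 561 and 386 FPKM in CCL20 libraries and 589 and 544 FPKM in control libraries (log2 fold change -0.06, adjusted p = 0.817, and -0.23 with the correction).

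Genes whose pattern over the 4 libraries was most like that of a member were found by the Euclidean distance of centred log2 CPM, over 4377 tested genes with a mean of at least 10 FPKM. Nearest to YAP1 were LMAN1, RMND5A and SLC30A6, at distances of 0.0164, 0.0244 and 0.0264. Nearest to CYR61 were PSAP, UPF3B and HSP90AB1, at 0.0163, 0.0179 and 0.0341. CTGF had no neighbour as close: HNRNPA1P33, a pseudogene whose reads may come from near-identical copies, lay at 0.261, STEAP1 at 0.306 and AL513165.1 at 0.313. With 4 libraries, such likeness is a description only.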

How the data were processed

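The deposited counts are whole reads per gene and the deposited FPKM values divide them by gene length and library total, per the file headers and values. The submitters' processing notes name HISAT2, HTSeq 0.13.5 and GRCh38. Those sources give no annotation and no strand setting. Gene lengths equalled GENCODE 29 merged exons for 99.7% of genes.

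Groups were compared with edgeR 4.0.16 in R 4.3.3 (quasi-likelihood test, TMM, two-sided, Benjamini-Hochberg) over the 12168 genes that reached a mean FPKM of 1. Length corrections were natural splines with 5 degrees of freedom, fitted per library on log2 CPM deviations (prior count 2) and used as offsets. Those on transcript length used 10572 coding genes, and the one on the longest coding transcript was added after seeing the data. Alternatives used DESeq2 1.42.0, limma 3.58.1 on log2(FPKM + 1), other scalings and filters, and left-out libraries. The code was tested on simulated data.

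The members and lists were chosen with earlier results of these data known. Beside the 10 members, genes named are CCL20, up to 3 called genes per direction and the highest gene of each list, the 3 nearest to YAP1, CYR61 and CTGF, and the highest marker of each cell type. Also named, chosen after their values were seen, are the remaining called list genes, LATS1, NF2, TEAD2, TEAD3, VGLL1, VGLL3, the other cell type markers and overlapping antisense genes. The chi-square of counts per gene between replicates was 42.5 in the CCL20 pair and 7.09 in the control pair, and no duplicate library was found. Protein sequences were not used here. A batch was not named in the labels.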

Additional observations from a re-analysis of the deposited data

How the results depend on the processing

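The number of all tested genes called, 3915, was 1932 with the gene length correction, 726 with mRNA length, 758 with the longest coding transcript, 1320 at an adjusted p under 0.01, and 650 to 7579 when 1 library was left out. The 3 members called lower became 6 on the TPM scale, where 4516 of all 12168 tested genes were called lower. They became 1 with the longest transcript correction, and their number changed when 1 library was left out. No member was called higher in the fits with all 4 libraries. AMOTL2 was called lower in all 21 alternatives to the uncorrected fit (log2 fold change -1.61 to -0.80), which do not include left-out libraries combined with a length correction, TEAD1 in 19 of 21, LATS2 in 14 of 20 and YAP1 in 10 of 21.

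Of the genes that missed the threshold, YAP1 kept its sign in all 21 alternatives to the uncorrected fit, and the other 5 changed sign under some. WWTR1 was 0.18 with gene length, 0.17 with the longest transcript, and -0.59 to 0.14 when 1 library was left out. CYR61 was -0.075 with total count scaling, -0.35 on the TPM scale, -0.074 with limma at each of the 3 pseudocounts, -0.27 with gene length, -0.041 with mRNA length and -0.16 with the longest transcript. CTGF was -0.10 on the TPM scale and -0.042 with gene length, AJUBA was 0.012 with the longest transcript, and AXL was 0.22 with mRNA length and 0.16 with the longest transcript.

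The libraries share replicate numbers, but 2 pairs cannot show that the numbers pair them. The correlation of the replicate differences between the groups was 0.265. With a replicate block 2840 genes were called higher and 2918 lower, and 4 members were called lower. With the replicate block and gene length, WWTR1 was 0.15, CYR61 -0.28 and CTGF -0.024. With the replicate block and mRNA length, 2066 genes were called, 3 members were called lower, among them WWTR1 at -0.49 (adjusted p = 0.0262), CYR61 was -0.045 and AXL 0.22.

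Starting from the mRNA length correction, 1356 genes were called at an adjusted p under 0.1, 87 at 0.01 and 133 to 4748 when 1 library was left out. Of the members, 0 were called lower at 0.01, 0 to 4 were called lower and 0 to 1 higher when 1 library was left out. In those fits YAP1 was -0.24 to 0.036, CYR61 -0.16 to 0.067 and CTGF -0.10 to 0.65. By counts in place of FPKM the YAP1 share was 50.1% with CCL20 and 56.0% in the control, and the TEAD1 share 61.8% with CCL20 and 77.3% in the control. The cause of these changes was not tested. With 2 libraries a group, leaving out 1 leaves a lone sample that is assumed to vary like the other group. ANKRD1, with 10 to 28 counts, is limited by depth.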
